A study of Mus musculus with 12 samples.

Results

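Ribosomal protein genes were followed across 4 sorted populations of embryonic salivary gland cells. They were chosen by symbol and on their level, as genes named Rpl, Rps, Rpsa or Rplp with a number and without the pseudogene suffix -ps, and with at least 100 counts summed over the 12 libraries. Of 43280 gene symbols in the count table, 89 had such a name and 82 reached the limit. The 82 were 43 proteins of the large subunit, 31 of the small subunit, the 3 stalk genes Rplp0, Rplp1 and Rplp2, and 5 paralogues (Rpl7l1, Rpl22l1, Rpl36al, Rps27l and Rps4l). Just inside the limit stood Rpl29 with 106 counts, Rpl24 with 165 and Rps27 with 178, and just outside it Rpl3l with 67 and Rps3a3 with 25. All 82 passed the filter on low counts, so each of them was tested in every comparison. The level used is the sum over all libraries, and earlier results of these data were known when the family was picked, so its pattern across populations is described and not taken as independent evidence.

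Ribosomal proteins assemble with ribosomal RNA in the nucleolus into the large and small subunits that translate messenger RNA. Their own messenger RNAs typically begin with a run of pyrimidines at the 5′ end, the terminal oligopyrimidine tract, through which mTOR signalling sets their translation. They are made in near equal numbers in most cells, and their genes have left many processed copies in the mouse genome. In the developing salivary gland Kit, a receptor tyrosine kinase, marks progenitor cells of the end buds, and keratin 5 (K5) marks basal cells of the ducts.

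Every library came from submandibular glands of Tg(KRT5-Venus)1Sgkd mouse embryos at embryonic day 15, in which the fluorescent protein Venus reports activity of the KRT5 promoter and stands in for K5 protein. Cells stained for E-cadherin were separated by Kit and by Venus into Kit+ K5+ and Kit+ K5- as well as Kit- K5+ and Kit- K5- populations, with 3 libraries of each, and total RNA was sequenced as single reads of 50 nt. How many embryos a library pools is not stated in the labels, and p-values measure only the spread between these libraries, which may be technical. Libraries carry the numbers 1 to 4, 5 to 8 and 9 to 12, and each of these runs holds 1 library of every population, so that replicate 1 of each population belongs to the first run and replicate 3 to the last. Total counts ran between 5589037 and 13724364. Levels are CPM, counts scaled to a common library size with TMM factors, and differences are log2 values ± SE from a single fit by edgeR's quasi-likelihood test over 17030 genes, with p-values adjusted by Benjamini-Hochberg over all of them and called at 0.05.

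The sort genes were read before the ribosomal ones. Kit stood at 283 to 445 CPM in the 6 Kit+ libraries and at 10.03 to 26.4 CPM in the 6 Kit- libraries. Krt5 had 1.57, 9.93 and 4.26 CPM across the Kit+ K5+ libraries and 0.317, 4.63 and 2.33 CPM across the Kit+ K5- libraries, ranges that overlap, and the difference did not pass the test (log2 1.11 ± 0.85, adjusted p = 0.829). Across the Kit- K5+ libraries Krt5 had 22.9, 13.5 and 20.3 CPM, against 0.853, 4.60 and 7.15 CPM across the Kit- K5- libraries. These ranges do not overlap, and this difference did not pass the test either (log2 2.18 ± 0.85, adjusted p = 0.0964). Cdh1, the gene of E-cadherin, had 503 to 909 CPM in Kit+ K5- and 530 to 657 CPM across the Kit- K5+ libraries, against 149 to 198 CPM across the Kit- K5- libraries. The 12 mesenchyme markers, collagens among them, summed to 385 to 793 CPM in Kit+ K5- and 566 to 883 CPM across the Kit- K5+ libraries, against 10558 to 17005 CPM across the Kit- K5- libraries, and none of the 12 was at 0 in any population. The Kit- K5- libraries therefore go against their label as sorted epithelium. All 3 do so by Cdh1 and mesenchyme markers, while markers of other cell types differed between the 3, as given below. The part of these markers in the differences below was not tested, and in bulk samples fewer cells of a type and less RNA per cell cannot be told apart. Mast cell markers, 7 genes, summed to 4735 CPM in Kit+ K5- replicate 1 and to 203 and 116 CPM in replicates 2 and 3, against at most 36.0 CPM in any Kit- K5- library. General epithelial genes, 18 in number, summed to 1806 to 2937 CPM in Kit+ K5- and 1686 to 1894 CPM in Kit- K5+ libraries, against 492 to 637 CPM in Kit- K5- libraries. Erythroid markers summed to 10.95 to 21.1 CPM in Kit+ K5- libraries and to 765, 136 and 136 CPM in Kit- K5- replicates 1 to 3. Neuronal markers summed to 3.79 to 9.19 CPM and to 60.3, 60.4 and 142 CPM in the same order. Leukocyte and macrophage markers, 10 genes, summed to 479, 95.1 and 87.1 CPM in Kit+ K5- replicates 1 to 3. In Kit- K5- replicates 1 to 3 they summed to 928, 299 and 178 CPM.

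The starts of several of these genes are shown first, because many members hold a run of pyrimidines there, a feature that their choice by name did not use. Each line gives 60 bases of the gene's strand, 40 before and 20 from the RefSeq start site onward, on GRCm38.p6, and capitals mark a run of 7 or more consecutive pyrimidines (C or T) that reaches within 20 bases of the start. Where there are several, the one that begins nearest to the start is marked and the others stay in lower case. The genes are 5 whose difference between Kit+ K5- and Kit- K5- cells was called in each fit that left out a library, then Rps15a, the least variable member, and Rpl15, with the largest K5 difference among Kit- cells.
Rpl38 (chr11:114668540-114668599, plus strand): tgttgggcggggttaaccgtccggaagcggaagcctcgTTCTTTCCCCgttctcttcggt
Rps24 (chr14:24490638-24490697, plus strand): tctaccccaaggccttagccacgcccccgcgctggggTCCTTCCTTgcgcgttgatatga
Rps27l (chr9:66946046-66946105, plus strand): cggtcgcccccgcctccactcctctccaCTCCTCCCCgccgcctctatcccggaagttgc
Rpl36al (chr12:69184048-69184107, minus strand): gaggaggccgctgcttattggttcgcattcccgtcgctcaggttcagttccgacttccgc
Rps7 (chr12:28635934-28635993, minus strand): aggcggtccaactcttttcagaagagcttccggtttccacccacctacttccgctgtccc
Rps15a (chr7:118116128-118116187, minus strand): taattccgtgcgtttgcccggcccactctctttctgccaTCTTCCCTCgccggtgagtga
Rpl15 (chr14:18270967-18271026, minus strand): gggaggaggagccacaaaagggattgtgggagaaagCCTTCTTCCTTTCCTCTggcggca
Of these, Rpl15 has a run of 17 pyrimidines across its start and Rpl38 a run of 10, while Rpl36al and Rps7 have no run of 7 or more within 20 bases of the start. The marked run of Rps27l lies wholly before the start site and so outside the annotated transcript.

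Such a run lay within 20 bases of the start in 34 of the 61 members with a promoter in the RefSeq table (55.7%), against 30.2% of 27025 promoters of all genes. Runs wholly before or after the start are counted too, so a counted run need not be a terminal oligopyrimidine tract. The 7 letters CCGGAAG, searched on both strands of the 300 bases of each promoter, were found in 24 of the 61 members (39.3%) and in 9.12% of all promoters. The pyrimidines of its reverse complement, CTTCCGG, can overlap the run. Among members that were higher in Kit+ K5- cells than in the Kit- K5- population, 17 of 30 held the run, and among the other members 17 of 31 did. CCGGAAG was in 13 of the same 30 members and in 11 of the other 31. These matches describe letters in the sequence, and neither difference between called and other members was tested.

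Together the 82 genes took a small part of each library, and the part was highest in Kit+ K5- cells. Their mean share of all counts was 0.738% ± 0.206 for Kit+ K5+ cells and 1.02% ± 0.358 for Kit+ K5- cells, then 0.649% ± 0.223 for Kit- K5+ cells and 0.512% ± 0.0364 for Kit- K5- cells (SD over 3 libraries). Mitochondrially encoded transcripts took 23.7% ± 6.60, 17.2% ± 8.81, 28.0% ± 3.32 and 9.07% ± 3.33 of counts in the same order. With those left out of the total the ribosomal share was 0.957% ± 0.197, 1.22% ± 0.337, 0.894% ± 0.265 and 0.564% ± 0.0510, in the same order of populations. The 252 rows of ribosomal pseudogenes (-ps) held 0.00929% to 0.0139% of counts on average in a population.

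A single gene carried a large part of this share. Rpl4, a large subunit protein that lines the exit tunnel, made up 13.68% to 23.3% of the ribosomal counts of a library, with a mean of 1382 CPM over the 12 libraries. Rps3, at the mRNA entry of the small subunit, averaged 472 CPM. At the low end Rpl29 averaged 0.929 CPM, Rpl24 1.404, Rps27 1.58 and Rps29 1.82 CPM. Per kilobase of annotated transcript the level was again highest for Rpl4, at 898 CPM per kilobase, with Rps15 at 516, against 1.27 for Rpl29. The transcript was the best-ranked protein-coding one of the annotation, and the longest where several ranked equally. The counted levels thus differed widely between members although their proteins are used in near equal numbers.

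The counts went with how much of a transcript is found nowhere else. For 81 members with an annotated protein-coding transcript (GENCODE M21), every window of 50 bases, the read length, was searched for in all transcripts of other genes, and a median of 48.7% of windows was unique to the gene. The transcript was again the longest of those ranked equally, so the share of unique windows depends on that choice. Shorter transcripts of the same gene were not searched. The 41 members with under 50% unique windows had a median of 1649 counts over the 12 libraries, the 33 members between 50% and 90% a median of 7011, and the 7 members above 90% a median of 24801. These classes overlapped, with 106 to 24718 counts under 50% and 2711 to 53255 above 90%. Of the 1859 windows of Rps3, 1804 were unique and it had 53255 counts, whereas 4 of 296 windows of Rps27 were unique and it had 178 counts. The labels do not state how reads that map to several places were treated. Levels of different members are therefore not compared further, and for members with few unique windows the level within a population is uncertain.

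**Figure D1:**
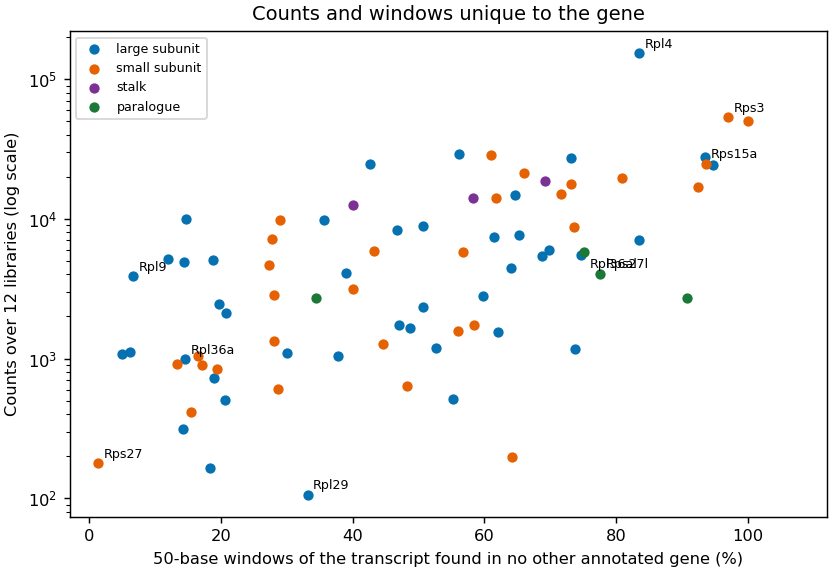
Counts of each ribosomal protein gene summed over 12 libraries (vertical axis, log scale) against the percentage of 50-base windows of its annotated transcript that occur in no other gene (horizontal axis); each point is a gene, coloured by class, for the 81 genes with a transcript. Genes with few unique windows lie low, from Rps27 with 178 counts at 1.35%, and Rps3 with 53255 counts lies at 97.0% of windows.

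Across libraries the members' levels shifted together. Their summed level was 8538, 8956 and 6133 CPM in Kit+ K5+ replicates 1 to 3 and 9202, 12698 and 7021 CPM in Kit+ K5- replicates. It was 8972, 6455 and 5229 CPM across the Kit- K5+ libraries and 4322, 4995 and 4661 CPM in Kit- K5- replicates. By this sum the 3 Kit- K5- libraries were the lowest of all 12, which does not hold for the share of all counts, and Kit+ K5- replicate 2 was the highest. That library held the highest value of 56 of the 82 members, while Kit- K5- replicates 1 and 3 held the lowest value of 24 and 15 members. By population means, Kit+ K5- cells were highest for 57 members and Kit- K5- cells lowest for 55. None of these counts of highest and lowest values was taken for all genes, so no share stands beside them. The sum averaged 7876 ± 1524 CPM for Kit+ K5+ and 9640 ± 2864 CPM for Kit+ K5- cells, then 6885 ± 1908 CPM for Kit- K5+ and 4659 ± 336 CPM for Kit- K5- cells (SD, n = 3 each). Libraries of the first 3 overlapped, and those of Kit- K5- cells lay below all of them with TMM scaling, while under scaling to general epithelial genes the members' median differences from Kit- K5- cells were below 0, as given with the comparisons.

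**Figure D2:**
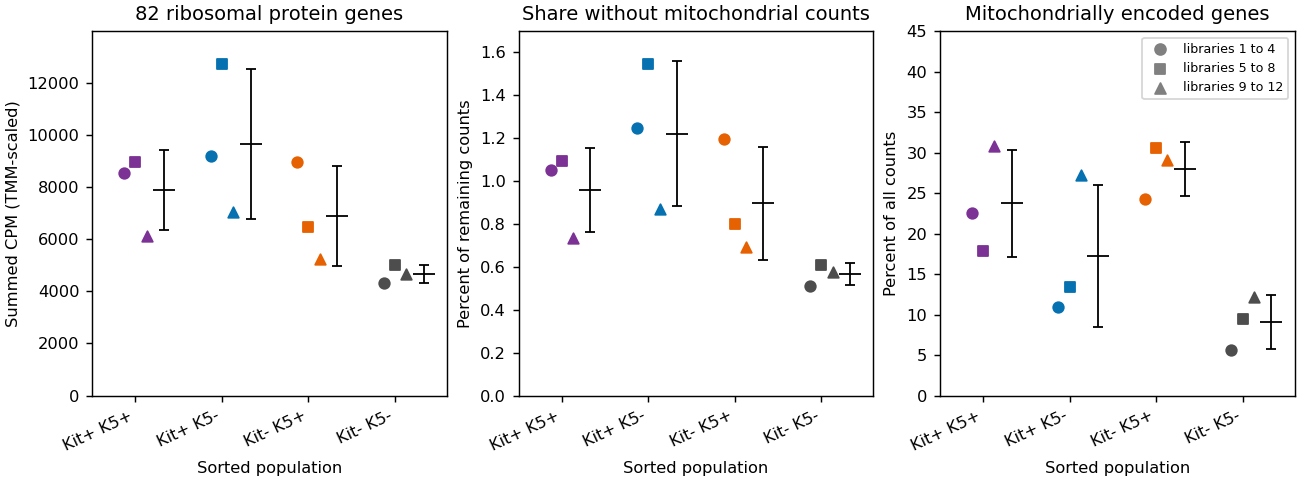
Left, summed CPM of the 82 ribosomal protein genes; middle, their percentage of counts with mitochondrially encoded genes left out; right, percentage of counts from mitochondrially encoded genes. Points are libraries, with a marker for each run of library numbers, and bars are the mean ± SD of 3 libraries. The sum lies between 4322 and 4995 CPM across the Kit- K5- libraries and at 5229 CPM or more in all others with TMM scaling, while scaling to general epithelial genes turned the members' median below 0 in Kit+ K5- minus Kit- K5- and in Kit- K5+ minus Kit- K5- cells.

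**Figure D3:**
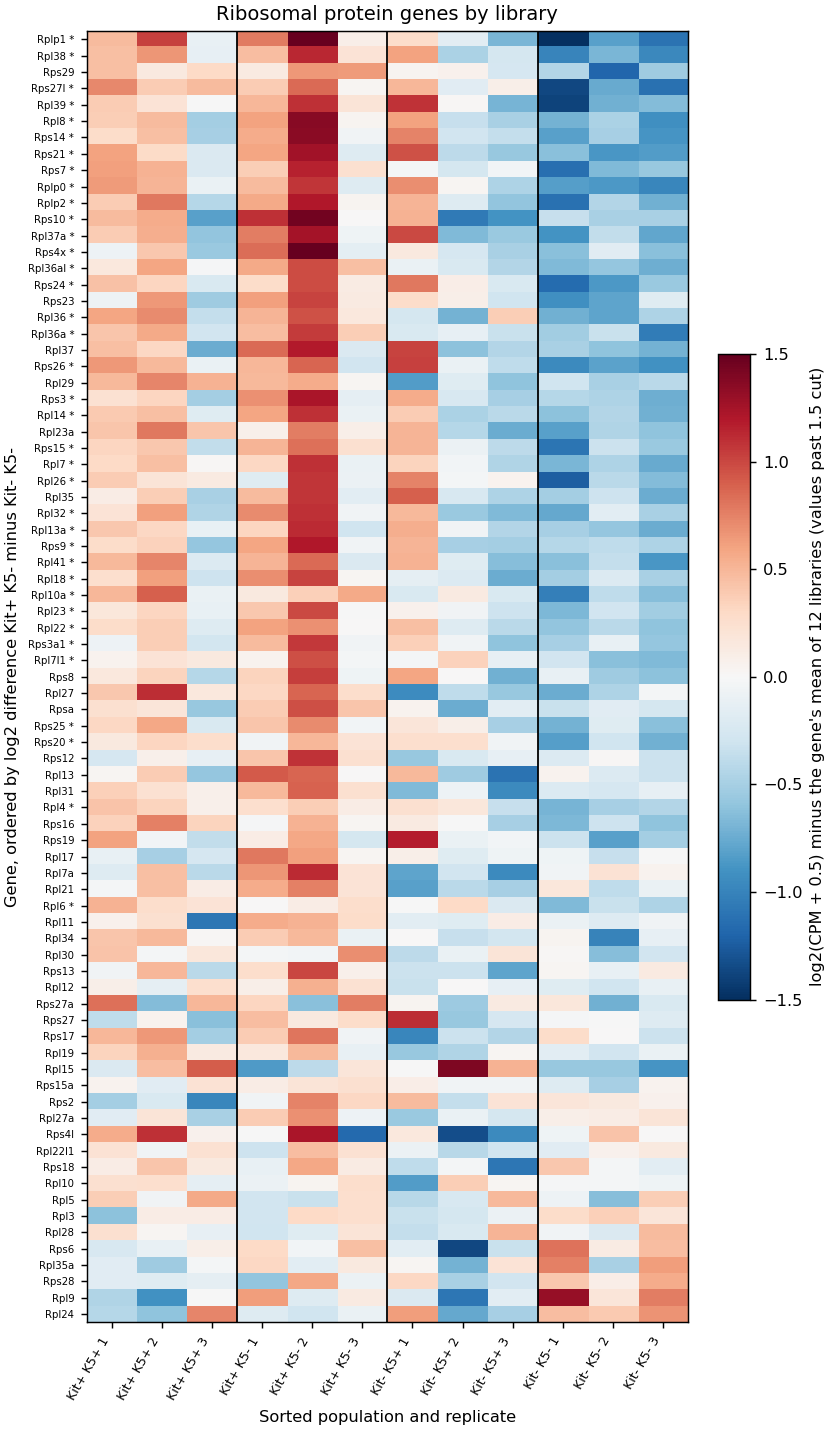
log2(CPM + 0.5) of 79 of the 82 genes minus the gene's mean over the 12 libraries, with genes in rows ordered by the difference Kit+ K5- minus Kit- K5- and libraries in columns by population. Stars mark the 37 of these genes called higher in that comparison with TMM scaling, where 10.2% of all genes were. With epithelial scaling 51 of the 82 were called lower, where 72.5% of all genes were called. Kit+ K5- replicate 2 is the reddest column, holding the highest value of 56 of the 82 genes, a count not taken for all genes.

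The question of what Kit separates among K5- cells gave the widest ribosomal difference. With TMM scaling, used in what follows, 40 of the 82 genes were called higher in Kit+ K5- cells than in the Kit- K5- population, or 48.8% against 10.2% of all genes tested, while scaling to 18 broadly epithelial genes gave 51 lower and 0 higher (62.2%, where 72.5% of all genes were called). With TMM scaling 0 were called lower, against 11.1% of all genes. The members' median difference was 0.95 and that of all genes 0.05, a gap of 0.90 on the log2 scale. Under the epithelial scaling the median of the members was -1.17 and that of all genes -2.05, a gap of 0.87. The direction of the family thus holds relative to the other genes of a library and turns against the epithelial genes, which were themselves higher in Kit+ K5- cells (15 of 18 called, median 2.21). By sign, 74 of 82 members were above 0, against 52.0% of all genes.

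**Figure D4:**
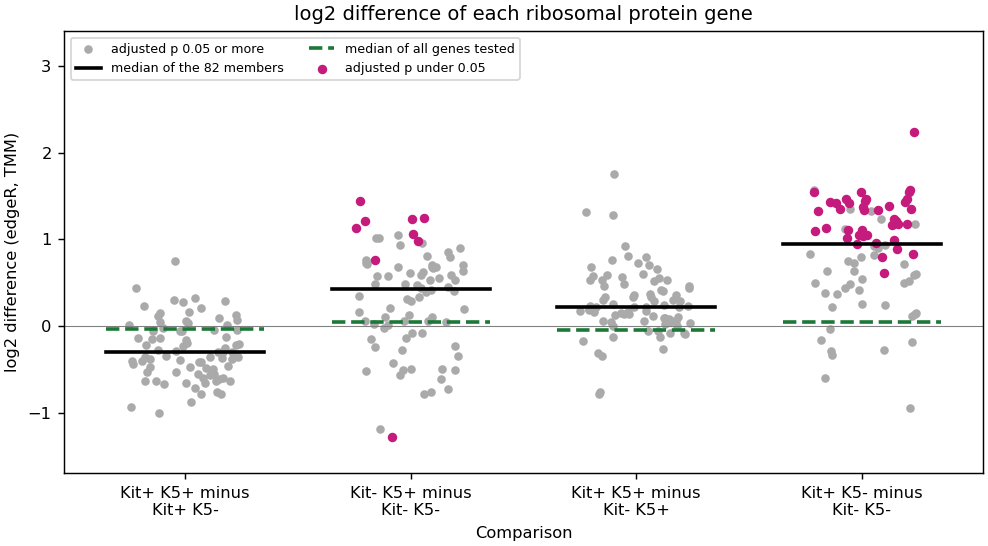
log2 difference of each ribosomal protein gene in the 4 pairwise comparisons, with TMM scaling; points are genes, coloured where the adjusted p was under 0.05, solid bars are the medians of the 82 genes and dashed bars those of all 17030 genes tested. In Kit+ K5- minus Kit- K5- cells 40 genes are called, all above 0, where 10.2% of all genes were called higher. Scaling to general epithelial genes called 51 lower, where 72.5% of all genes were called.

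The stalk proteins, which recruit elongation factors to the ribosome, were all called. Rplp1 had 157, 326 and 96.3 CPM across the Kit+ K5- libraries, against 29.7, 51.3 and 42.0 CPM across the Kit- K5- libraries. The lowest Kit+ K5- library was above the highest Kit- K5- library, and the difference was the largest of all members (log2 2.24 ± 0.43, 4.71-fold, adjusted p = 0.00232). The log2 difference was 1.61 without Kit+ K5- replicate 2. Rplp0, the base of the stalk, had 160, 242 and 100.1 CPM across the Kit+ K5- libraries and 64.5, 63.1 and 58.0 CPM across the Kit- K5- libraries (log2 1.43 ± 0.33, adjusted p = 0.00787). Rplp2, the partner of Rplp1, differed by 1.43 ± 0.37 (adjusted p = 0.0140).

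In the small subunit 15 of 31 members were called, with a median difference of 0.93. Rps3 had 699, 1009.8 and 395 CPM across the Kit+ K5- libraries and 321, 313 and 259.6 CPM across the Kit- K5- libraries, groups that do not overlap (log2 1.24 ± 0.34, adjusted p = 0.0206). Rps7, a protein that also binds the p53 regulator Mdm2, had 33.6, 58.1 and 30.7 CPM across the Kit+ K5- libraries and 11.6, 16.2 and 17.4 CPM across the Kit- K5- libraries (log2 1.44 ± 0.31, adjusted p = 0.00484). In both Kit+ K5- replicate 2 was highest. Rps24, mutated in Diamond-Blackfan anaemia in humans, differed by 1.35 ± 0.31 (adjusted p = 0.00666), and Rps14, Rps21, Rps4x, Rps10, Rps26, Rps15, Rps9, Rps3a1, Rps25 and Rps20 by 0.83 to 1.46. Rps15a had 239, 252 and 262 CPM across the Kit+ K5- libraries and 194, 157 and 231 CPM across the Kit- K5- libraries, which do not overlap, and its difference did not pass the test (log2 0.37 ± 0.18, adjusted p = 0.169). Rpsa, known also as a laminin receptor, had a difference of 0.90 ± 0.33 (adjusted p = 0.0701).

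In the large subunit 19 of 43 members were called, with a median difference of 0.92. Rpl38, needed in mouse embryos for translation of Hox messenger RNAs, had 31.7, 50.8 and 26.5 CPM across the Kit+ K5- libraries and 11.3, 14.02 and 11.4 CPM across the Kit- K5- libraries (log2 1.57 ± 0.35, adjusted p = 0.00587). Rpl4 had 1598, 1737 and 1448 CPM across the Kit+ K5- libraries and 827, 948 and 986 CPM across the Kit- K5- libraries (log2 0.79 ± 0.19, adjusted p = 0.0106). In both genes no Kit- K5- library reached a Kit+ K5- library. The called members of lowest difference were Rpl6, at 0.62 ± 0.19, and Rpl4. Rpl24, whose mouse mutation gives the Belly spot and tail phenotype, was at the other end with 1.06, 0.948 and 1.17 CPM across the Kit+ K5- libraries and 1.97, 1.84 and 2.35 CPM across the Kit- K5- libraries, non-overlapping but few reads (log2 -0.95 ± 0.77, adjusted p = 0.423). Rpl9 and Rps28 also had differences below 0, at -0.60 ± 0.36 and -0.33 ± 0.36, and neither passed the test.

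Among the paralogues Rpl36al, the autosomal counterpart of X-linked Rpl36a, gave the smallest p of all members. It had 72.1, 95.9 and 66.9 CPM across the Kit+ K5- libraries and 30.6, 32.5 and 29.0 CPM across the Kit- K5- libraries (log2 1.35 ± 0.22, 2.55-fold, adjusted p = 0.000848). Rps27l, a paralogue of Rps27 that is induced by p53, had 44.2, 61.2 and 34.4 CPM across the Kit+ K5- libraries and 12.8, 19.8 and 15.2 CPM across the Kit- K5- libraries (log2 1.55 ± 0.28, adjusted p = 0.00146). Both were higher in all 3 Kit+ K5- libraries than in any Kit- K5- library. Rpl7l1 differed by 0.94 ± 0.29 (adjusted p = 0.0338). Rpl22l1 had 18.7, 32.4 and 27.4 CPM across the Kit+ K5- libraries and 20.7, 24.4 and 25.8 CPM across the Kit- K5- libraries, which overlap (log2 0.15 ± 0.25, adjusted p = 0.729), and Rps4l differed by 0.21 ± 0.63 (adjusted p = 0.847).

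The number of calls rested on few libraries. Without Kit+ K5- replicate 2 it was 9, or 10.98% against 11.4% of all genes called in either direction, where the full fit gave 48.8% against 21.3%. All 9 were higher, and the share of all genes called higher alone was not taken for fits with libraries left out. Without Kit- K5- replicate 1 the number of calls was 12 (14.6% against 11.9%), and without Kit- K5- replicate 3 it was 16 (19.5% against 13.9%). Without Kit+ K5- replicate 1, the library with the mast cell markers, 33 were called (40.2% against 18.8%). Leaving out library numbers 1 to 4 left 25 calls (30.5% against 16.7%). Leaving out 5 to 8 left 3, all higher (3.66%, against 4.77% of all genes in either direction). The genes called in each of the 12 fits without a library numbered 8, with Rpl36al, Rpl38, Rplp1, Rps24, Rps27l and Rps7 among them. Within the runs of library numbers 68, 78 and 71 of the 82 members were higher in the Kit+ K5- than in the Kit- K5- library, and the summed level was 2.13, 2.54 and 1.51 times as high. The share of all genes that were higher was not taken. The members' median log2 differences within the runs were 0.88, 1.19 and 0.55, against 0.03, -0.03 and 0.02 for all genes. Calls also went with read number: 33 of the 41 members with counts at or above the members' median were called and 7 of the 41 below it, and 27 of 40 members with at least 50% unique windows against 13 of 41 below. The 10.2% of all genes called higher covers genes of any read number. A share for genes with read numbers like those of the members was not taken, so the part of read number in the members' 48.8% is not known.

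**Figure D5:**
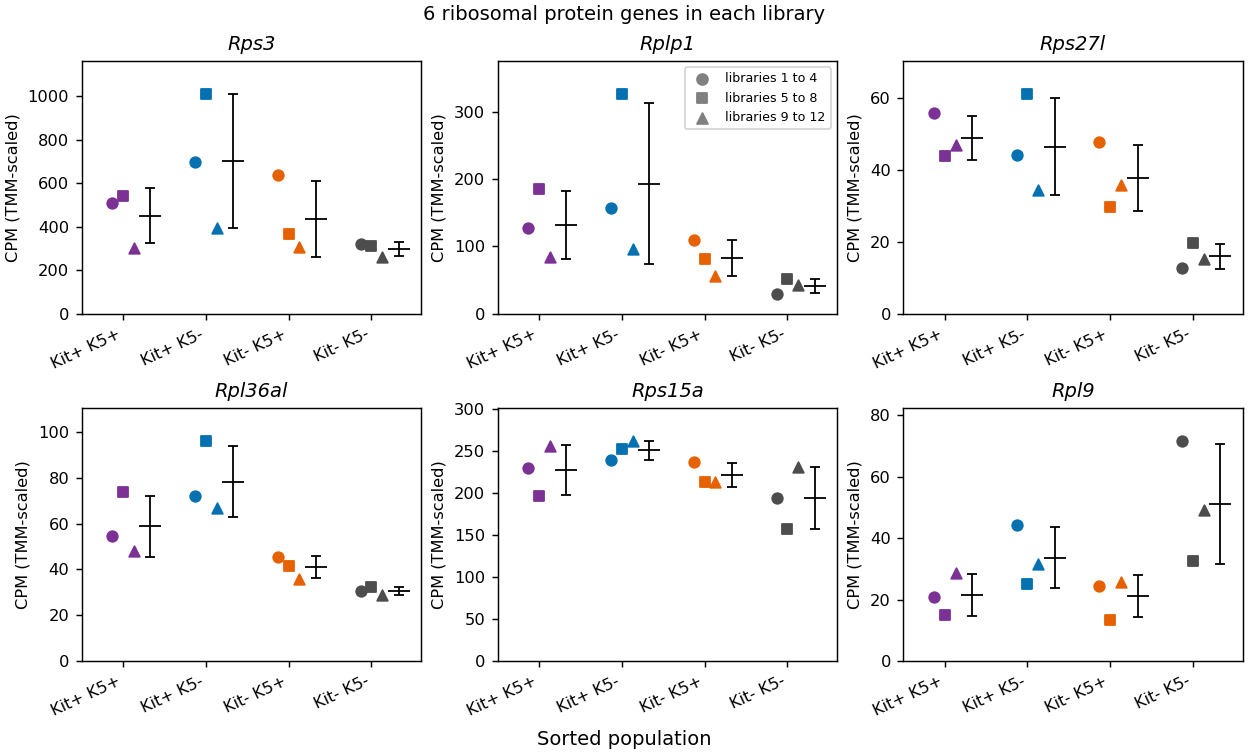
CPM of 6 ribosomal protein genes in each library, with the mean ± SD of 3 libraries beside the points and a marker for each run of library numbers. Rps3, Rplp1, Rps27l and Rpl36al are higher in all 3 Kit+ K5- than in all 3 Kit- K5- libraries on this scaling (scaling to general epithelial genes turns the sign of all but Rplp1), Rps15a differs little and Rpl9 is highest in Kit- K5- replicate 1 at 71.5 CPM.

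Coding sequences of the pairs Rps27l with Rps27 and Rpl36al with Rpl36a are given to show where the copies of a pair differ. The first 60 coding bases are printed, with capitals at bases that differ within the pair, as found in the annotated transcripts (GENCODE M21, GRCm38).
Rps27l (chromosome 9): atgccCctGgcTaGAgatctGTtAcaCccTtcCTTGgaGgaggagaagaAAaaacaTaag
Rps27 (chromosome 3): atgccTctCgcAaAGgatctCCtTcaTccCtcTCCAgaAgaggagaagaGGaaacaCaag
Rpl36al (chromosome 12): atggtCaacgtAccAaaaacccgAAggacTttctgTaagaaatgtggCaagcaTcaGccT
Rpl36a (chromosome X): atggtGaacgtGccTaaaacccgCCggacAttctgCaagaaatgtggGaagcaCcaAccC
The pair Rps27l and Rps27 differ at 61 of 255 coding bases, and the longest identical stretch is 11 bases. The pair Rpl36al and Rpl36a differ at 39 of 321, and the longest identical stretch is 24 bases, so a read of 50 nt within either coding sequence spans at least 1 difference. Genes outside the pair can still share such a read, since few windows of Rps27 and Rpl36a are unique.

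The balance within these pairs was measured as the paralogue's percentage of the pair's counts. Rps27l held 94.8% to 97.3% of its pair among Kit+ K5- and 89.9% to 93.2% among Kit- K5- libraries, and 92.7% to 98.4% in K5+ libraries of either Kit status. Rpl36al held 84.7% to 86.3% of its pair among Kit+ K5- and 83.6% to 88.8% among Kit- K5- libraries, which overlap, and Rpl36a itself differed by 1.34 ± 0.38 (adjusted p = 0.0221). Rpl22l1, whose transcript is held down by the Rpl22 protein in mice, held 5.63%, 8.86% and 11.7% of its pair among Kit+ K5- and 13.1%, 13.6% and 16.0% among Kit- K5- libraries. These do not overlap, and Rpl22 itself was called higher in Kit+ K5- cells (log2 0.99 ± 0.25, adjusted p = 0.0135). Rpl22l1 was not called and its difference was not below 0 (log2 0.15 ± 0.25, adjusted p = 0.729). The lower percentage thus goes with the higher Rpl22 count, and a link between the 2 genes was not tested. Rps4l held 11.1% to 12.1% of its pair with Rps4x among Kit+ K5+ and 3.29% to 6.35% among Kit+ K5- libraries, without overlap. It held 3.08% to 7.52% for Kit- K5+ and 10.5% to 11.2% for Kit- K5- libraries. These rest on few reads, with 12 counts of Rps4l in Kit+ K5- replicate 3 and 11 in Kit- K5+ replicates 2 and 3. Rps4l itself was not called between Kit+ K5+ and Kit+ K5- cells (log2 0.32 ± 0.63, adjusted p = 0.941). Rpl7l1 held 21.9% to 25.8% of its pair with Rpl7 among Kit+ K5- and 22.8% to 30.5% among Kit- K5- libraries, which overlap. Few windows of Rps27 (1.35%) and Rpl36a (14.5%) are unique, so their part of a pair is uncertain.

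Among Kit- cells, K5 separated fewer ribosomal genes. Against Kit- K5- cells, 8 members were called higher in Kit- K5+ cells, or 9.76% against 7.38% of all genes, while scaling to general epithelial genes gave 26 lower and 0 higher (31.7%, where 47.6% of all genes were called). With TMM scaling 1 was called lower, or 1.22% against 9.1% of all genes. The share called higher was thus near that of genes in general and the share called lower was below it. The members' median difference was 0.42 and that of all genes 0.04 (-0.94 and -1.31 under the epithelial scaling). By sign 60 of 82 members were above 0, against 52.1% of all genes. The mesenchyme markers moved with this comparison too, with 11 of 12 called lower in Kit- K5+ cells.

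Rpl15, a large subunit protein, had the widest difference, with 51.01, 136 and 73.5 CPM across the Kit- K5+ libraries and 34.3, 34.2 and 27.5 CPM across the Kit- K5- libraries (log2 1.44 ± 0.38, adjusted p = 0.0191). Rps27l had 47.8, 29.8 and 36.0 CPM across the Kit- K5+ libraries and 12.8, 19.8 and 15.2 CPM across the Kit- K5- libraries (log2 1.25 ± 0.27, adjusted p = 0.00775). For both genes all Kit- K5+ libraries were above all Kit- K5- libraries. Rpl39, which lines the exit tunnel, had 122, 57.8 and 35.0 CPM across the Kit- K5+ libraries and 21.4, 34.5 and 36.0 CPM across the Kit- K5- libraries, groups that overlap (log2 1.23 ± 0.39, adjusted p = 0.0438), and its difference was 0.60 without Kit- K5+ replicate 1. The other calls, at 0.76 to 1.21, included Rps26, Rps24, Rplp0 and Rps20.

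Rpl9 was the only member called lower in Kit- K5+ cells than in the Kit- K5- population. It had 24.5, 13.2 and 25.6 CPM across the Kit- K5+ libraries and 71.5, 32.4 and 49.2 CPM across the Kit- K5- libraries, which do not overlap (log2 -1.28 ± 0.36, adjusted p = 0.0289). Of the 689 windows of its transcript 46 are unique, and 12 annotated pseudogenes share sequence with it, so its reads cannot be told from those of the copies with certainty. Rps6, the substrate of S6 kinase, had 2.88, 0.962 and 2.49 CPM across the Kit- K5+ libraries and 6.10, 3.601 and 4.70 CPM across the Kit- K5- libraries (log2 -1.19 ± 0.52, adjusted p = 0.142). Rpl22l1 differed by -0.28 ± 0.26 (adjusted p = 0.489).

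Of the 9 calls 0 were made in each of the 12 fits without a library. The count was 0 without Kit- K5- replicate 1, where 7.37% of all genes were called, and 4 without Kit- K5- replicate 2 (8.86% of all genes). It was 3 without Kit- K5- replicate 3 (11.5%). Leaving out Kit- K5+ replicate 1 gave 3 (12.1%), and so did leaving out replicate 2 of that population (10.4%). It was 1 without library numbers 1 to 4 (10.1%) and 1 without 5 to 8 (3.07%). With the run of library numbers as a replicate block it was 15, against 23.8% of all genes, including all 9, with Rpl7a the second gene called lower. Within the runs the summed level in the Kit- K5+ library was 2.08, 1.29 and 1.12 times that of the Kit- K5- library.

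The remaining pairwise comparisons do not involve the Kit- K5- libraries, and neither gave a ribosomal call. Among K5+ cells, 0 members were called higher in Kit+ than in Kit- cells, against 0.335% of all genes, and 0 lower, against 0.323%, by edgeR's quasi-likelihood test. At an unadjusted p under 0.05 there were 7 members of 82, against 18.5% of all genes, and DESeq2 called 1, against 5.63% of all genes. The members' median difference was 0.22 and that of all genes -0.05 (-0.36 and -0.61 when scaled to general epithelial genes), and 68 of 82 members were above 0, against 46.9% of all genes. Rpl27, a large subunit protein, had 18.6, 30.6 and 15.6 CPM across the Kit+ K5+ libraries and 7.002, 10.6 and 9.18 CPM across the Kit- K5+ libraries, which do not overlap (log2 1.28 ± 0.35, adjusted p = 0.0959). With the replicate block its difference was 1.26 (adjusted p = 0.0355), the only member called, where 4.63% of all genes were. Rpl29 had the largest value, 1.75 ± 0.79 (adjusted p = 0.258), at under 2 CPM, and Rpl36al differed by 0.52 ± 0.22 (adjusted p = 0.228).

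Among Kit+ cells, 0 members and 0.0% of all genes were called between Kit+ K5+ and Kit+ K5- cells. At an unadjusted p under 0.05 there were 4 members, against 6.82% of all genes, and DESeq2 called 0 members and 0.658% of all genes. The median difference was -0.30 for the members and -0.04 for all genes (-0.15 and 0.14 under the epithelial scaling), with 19 of 82 members above 0 against 46.9% of all genes. Rps4x had 54.1, 75.2 and 38.4 CPM across the Kit+ K5+ libraries and 102, 166 and 51.4 CPM across the Kit+ K5- libraries (log2 -0.93 ± 0.36, adjusted p = 0.642). Rps2 had the lowest value, -1.004 ± 0.44 (adjusted p = 0.705), at under 10 CPM in every library. Rpl15 had the highest, with 44.00, 70.7 and 96.4 CPM across the Kit+ K5+ libraries and 28.2, 38.8 and 58.3 CPM across the Kit+ K5- libraries (log2 0.75 ± 0.37, adjusted p = 0.754). The missing calls do not show that levels were equal.

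The test of whether the K5 difference depends on Kit gave 0 members, against 4.02% of all genes. At an unadjusted p under 0.05 there were 26 members of 82, or 31.7% against 18.8% of all genes, and DESeq2 called 1, against 6.89% of all genes. The members' median interaction was -0.78 and that of all genes -0.09, with 19 of 82 members above 0 against 45.5% of all genes, while scaling to general epithelial genes gave 0.74 and 1.43. The smallest p was that of Rps24, at -1.43 ± 0.43 (adjusted p = 0.0825), and Rpl39 was at -1.67 ± 0.54 (adjusted p = 0.107). With the replicate block 4 were called, where 8.33% of all genes were, each below 0 (Rps14, Rplp1 and Rps24 among them, adjusted p of 0.0461 to 0.0490 over the 4), and with that block and TMM factors computed without members and mitochondrial genes 0 were, against 8.18%. Without Kit- K5+ replicate 3 there was 1, against 3.77%. Leaving off the filter on low counts gave 13 members, each below 0 (15.9%, against 5.38% of all genes then tested).

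The runs of library numbers were compared with the population as a term. The test over all 3 runs called 0 members at 0.05, against 3.56% of all genes, and 32 members at an unadjusted p under 0.05, against 23.4%. DESeq2 called 15 of 81 members (18.5%), against 13.8% of all genes. Leaving off the filter on low counts gave 20 members (24.4%, against 5.83% of all genes then tested). Between runs, 16 of 82 members were higher in library numbers 9 to 12 than in 1 to 4, against 47.7% of all genes, and 13 of 82 were higher than in 5 to 8, against 49.3%. The members' median between the last run and the first was -0.24 and that of all genes -0.03, while scaling to general epithelial genes gave 0.33 and 0.57. Rpl41, the smallest ribosomal protein, was called lower in 9 to 12 than in 1 to 4 (log2 -0.72 ± 0.18, adjusted p = 0.0414), where 2.31% of all genes were called lower. It had 205, 204, 152 and 129 CPM in the last run and 331, 337, 338 and 153 CPM in the first, with Kit+ K5+ and Kit+ K5- before Kit- K5+ and Kit- K5- cells. Every population was lower in the last run. The mean ribosomal share was 0.533% in library numbers 9 to 12, against 0.826% in 1 to 4 and 0.834% in 5 to 8, and the mitochondrial share was 24.9%, against 15.8% and 17.8%. The part of the mitochondrial share in this was not tested.

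Other genes of ribosome production and translation were read from lists. In Kit+ K5- against Kit- K5- cells 10.2% of all genes were called higher and 11.1% lower with TMM scaling. Under scaling to general epithelial genes 72.5% of all genes were called, and their median was -2.05. In that comparison 26 of 45 ribosome biogenesis genes were called higher and 0 lower with TMM scaling, and all 45 were above 0 (median 0.93). Under the epithelial scaling 26 were called lower and 0 higher (median -1.16). Among these Nop10, of the snoRNP particles that modify ribosomal RNA, differed by 2.21 ± 0.36 (adjusted p = 0.000750) and Heatr1, of the small subunit processome, by 1.36 ± 0.21. Of 73 mitochondrial ribosomal protein genes 25 were called higher and 0 lower (median 0.90), of 35 initiation factors 13 and 0 (0.57), of 8 elongation factors 4 and 0 (0.79) and of 14 RNA polymerase I genes 4 and 0 (0.50), while under the epithelial scaling each of these 4 medians was below 0, between -1.6004 and -1.21. The other 5′ TOP genes gave 7 of 18 higher and 1 lower, but 16 lower under the epithelial scaling. The 1 was Vim, an intermediate filament gene that is also a mesenchyme marker.

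In the same comparison Gnb2l1, which encodes the ribosome-bound scaffold RACK1, was called higher in Kit+ K5- cells (log2 1.26 ± 0.31, adjusted p = 0.0101). Fau, which makes a ribosomal protein fused to a relative of ubiquitin, had 4.51 to 8.74 CPM across the Kit+ K5- libraries, against 3.68 to 4.0002 CPM across the Kit- K5- libraries (adjusted p = 0.271). Among 20 mTOR pathway genes 4 were called higher and 0 lower (10.2% and 11.1% of all genes), with a median of 0.05, equal to that of all genes. Under the epithelial scaling 18 were lower and 0 higher, where 72.5% of all genes were called. Myc, a transcription factor that drives ribosome production and is held in that list, had 154, 249.5 and 266 CPM across the Kit+ K5- libraries and 55.5, 79.3 and 107 CPM across the Kit- K5- libraries (log2 1.47 ± 0.29, adjusted p = 0.00327). In Kit- K5+ against Kit- K5- cells 4 of 45 ribosome biogenesis genes and 3 of 73 mitochondrial ribosomal protein genes were called higher, where 7.38% of all genes were, and 0 of either lower. The epithelial scaling gave 23 and 31 lower, where 47.6% of all genes were called. In Kit+ K5+ against Kit- K5+ cells 2 of 45 ribosome biogenesis genes were called higher, against 0.335% of all genes. All 45 were above 0, against 46.9% of all genes, with a median of 0.63 (28 above 0 and a median of 0.14 under the epithelial scaling).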

How the data were processed

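RNA of 12 libraries was measured, 3 of each sorted population. The authors deposited raw counts, whole reads per gene symbol. STAR 2.4.2a (GRCm38) and featureCounts made them, per the labels' protocols; versions 1.4.6-p3 of featureCounts and 1.129 of Picard, and the build GRCm38.p3, stand in the submitters' processing notes. Annotation, strand and the handling of multi-mapping reads are not given in the sources used. Antisense or overlapping reads can therefore not be told apart.

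Groups came from the sample labels. Counts were fitted in R 4.3.3 with edgeR 4.0.16 (TMM, filterByExpr, 1 coefficient per population, 8 residual degrees of freedom), for 17030 genes, with Benjamini-Hochberg adjustment over all. The median biological coefficient of variation was 0.314 for the members and 0.384 for all genes. The fit was tested on simulated data. Alternatives were DESeq2 1.42.0, other scaling, no filter, thinning, -ps counts added, a replicate block and libraries left out. The replicate block together with TMM factors computed without members and mitochondrial genes was chosen after seeing the data.

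Members, gene lists and the rule for naming genes were chosen with earlier results of these data known. By that rule, up to 20 called members in each direction, the paralogues, stalk genes, Rpsa, the extremes of level and difference and up to 3 called genes of each list are named; part of them is written out, and a few genes are not reported here by name, though they stay in every fit and count. Rpl41, named outside it, was chosen after its values were seen.

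Libraries of the same run of numbers deviated together from their population means in each pairwise comparison (r of 0.108 at the lowest), so the runs may pair these libraries. Over all 18 pairs within runs the lowest r was 0.0928. Pairs of libraries from different runs were not read beside them. Calls are from the fit without the block unless it is named, and the block's values for the interaction are for comparison. This pairing is read from the data, since labels give only the numbers. Transcripts and positions are from GENCODE M21 (GRCm38), promoters from RefSeq (GRCm38.p6), where 61 of 82 members matched by symbol.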

Additional observations from a re-analysis of the deposited data

Results flagged for a closer look

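The summed level of the ribosomal protein genes differed by K5 in opposite directions in Kit+ and Kit- cells in all 3 runs of library numbers with TMM scaling, whereas scaling to general epithelial genes put the members' median below 0 in both (-0.15 and -0.94). The Kit+ K5+ library held 0.928, 0.705 and 0.873 times the summed CPM of the Kit+ K5- library of its run. The Kit- K5+ library held 2.08, 1.29 and 1.12 times that of the Kit- K5- library. For the sum this difference was not tested. For single members the interaction test called 0 of 82, and 4 with the runs as a replicate block, each below 0 (4.02% and 8.33% of all genes). With that block and TMM factors computed without members and mitochondrial genes it called 0 (8.18%). Leaving off the filter on low counts gave 13, each below 0 (15.9% against 5.38% of all genes).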

How the results depend on the processing

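The direction of the calls turned only under scaling to general epithelial genes. For Kit in K5- cells RLE scaling gave 39 calls, TMM without members and mitochondrial genes 40 and DESeq2 43, all higher (21.1%, 21.2% and 24.9% of all genes called in either direction). The epithelial genes were themselves higher in Kit+ K5- cells with TMM scaling (median 2.21), and scaling to them moved the median of all genes with that of the members. Scaled to general epithelial genes, calls were 51 for Kit in K5- cells and 26 for K5 in Kit- cells, all lower, and 2 for the interaction, both higher (72.5%, 47.6% and 23.9% of all genes were called). Members' medians under it were -1.17, -0.94, -0.36 for Kit in K5+ cells, 0.74 for the interaction and 0.33 for the last run against the first, beside -2.05, -1.31, -0.61, 1.43 and 0.57 for all genes. The members' median minus that of all genes was 0.87 for Kit in K5- and 0.37 for K5 in Kit- cells, against 0.90 and 0.38 with TMM, so the turned signs of single members are those of the shift. Log2 values for Kit in K5- cells were -0.96 (Rpl14), -1.17 (Rpl22), -1.13 (Rpl23), -0.76 (Rpl36al), -0.56 (Rpl38), -0.59 (Rpl39), -1.31 (Rpl4), -0.98 (Rpl7), -0.69 (Rpl8), -0.73 (Rplp0), -0.70 (Rps14), -0.96 (Rps15), -1.24 (Rps20), -0.77 (Rps24), -0.60 (Rps27l), and -0.68 (Rps7). For K5 in Kit- cells they were -0.14 (Rpl39), -0.30 (Rplp0), -0.61 (Rps20), -0.23 (Rps24), -0.15 (Rps26) and -0.11 (Rps27l). RLE scaling and TMM without members and mitochondrial genes reversed 0 of the 25 calls followed.

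With the replicate block calls were 15 for K5 in Kit- cells, 1 for Kit in K5+ cells and 4 for the interaction. Of all genes 23.8%, 4.63% and 8.33% were called there, and the 40 and 9 calls all held. With that block and TMM without members and mitochondrial genes calls were 16, 1 and 0 (24.0%, 4.79% and 8.18% of all genes). The 4 interaction calls of the block were thus lost. Without a filter on low counts there were 1 for Kit in K5+ cells (1.22% against 3.33% of all genes) and 13 for the interaction (15.9% against 5.38%). The runs then had 20 (24.4% against 5.83%). DESeq2 gave 1, 1 and 15 in the same order, where 5.63%, 6.89% and 13.8% of all genes were called. Thinning gave 1 for the runs (3.79% of all genes). Without library numbers 1 to 4 calls were 25 for Kit in K5- cells and 1 for K5 in Kit- cells (16.7% and 10.1% of all genes). Without 5 to 8 they were 3 and 1 (4.77% and 3.07%). Over the fits without a single library calls ranged from 0 to 10 for K5 in Kit- cells and from 9 to 42 for Kit in K5- cells; the interaction had 0 to 1 and the runs 0 to 4. The cause of these moves was not tested. Shares of counts moved by over 1 SD in 3 populations when mitochondrial genes were left out. Low read numbers and shared sequence limit the smaller members.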
